A study of Homo sapiens with 9 samples.

Results

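The genes described here encode the machinery that starts RNA polymerase II transcription: the Mediator subunits (MED), TBP and its associated factors (TAF), the general transcription factors TFIIA to TFIIH (GTF2) and the subunits of RNA polymerase II itself (POLR2). They were selected by name and by a measured value, a mean of at least 5 CPM (reads scaled to library size) over the 3 libraries without 4sU. Such a name was carried by 83 of 25797 genes, and 62 of the 83 reached the minimum, as did 8537 genes in all. Because that level chose the members, the levels without 4sU and their differences from other libraries are given as a description with no test. The conversion rates were not used in the choice.

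The libraries are SLAM-Seq libraries, in which newly made RNA takes up 4-thiouridine (4sU), alkylation makes the labelled bases read as C, and the share of T positions read as C (the T>C conversion rate) marks new RNA at the 3′ ends of messages. All came from MCF10A, a non-tumorigenic human mammary epithelial cell line, in which JUN had been knocked out and replaced by JUN-AID, a JUN fused to an auxin-inducible degron, together with TIR1, the plant receptor that the degron needs. The 3 groups of 3 samples were a control without 4sU, DMSO-treated cells pulsed with 100 µM 4sU over 1 h, and cells pulsed in the same way after 1 h in 100 µM indole-3-acetic acid (IAA), the auxin that triggers degradation of JUN-AID. The study asked how acute loss of JUN changes new and total mRNA. The control carried the same JUN knockout, JUN-AID and TIR1, and its labels do not say whether it received DMSO. No group without TIR1 or with the original JUN gene is part of the comparison, and the labels do not say whether the cells came from 1 clone. The study calls the replicates biological, and the labels do not say what separated them. JUN was removed as protein, which RNA libraries do not measure.

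RNA polymerase II cannot find a promoter by itself. TFIID, made of TBP and TAFs, recognises the core promoter, TFIIA and TFIIB settle it there, TFIIF brings in the polymerase, and TFIIE and TFIIH open the DNA and phosphorylate the tail of POLR2A. Mediator bridges activators bound at enhancers to this complex through its tail, middle and head modules, and a separable kinase module controls its contact with the polymerase. These proteins serve nearly all genes read by RNA polymerase II.

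The promoters of 4 members are shown here, since these messages contrast in the labelling described below: MED26, TAF1D and MED18 had the highest conversion rates after background, and POLR2A, the catalytic subunit, had a low one. Each run is the 250 bases before the gene's start, 5′ to 3′ on the gene's strand, from RefSeq (GRCh38.p14). Capitals mark a GC box (GGGCGG on either strand), the site of SP1-type factors, or an ETS-type motif (CCGGAAG on either strand). The 2 kinds of motif share no bases, whereas the last GC boxes of MED26 overlap each other.
MED26: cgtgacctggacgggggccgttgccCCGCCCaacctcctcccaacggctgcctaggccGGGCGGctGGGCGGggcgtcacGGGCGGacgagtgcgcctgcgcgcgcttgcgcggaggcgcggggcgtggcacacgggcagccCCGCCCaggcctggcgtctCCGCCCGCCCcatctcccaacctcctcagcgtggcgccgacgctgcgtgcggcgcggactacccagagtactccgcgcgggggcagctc
TAF1D: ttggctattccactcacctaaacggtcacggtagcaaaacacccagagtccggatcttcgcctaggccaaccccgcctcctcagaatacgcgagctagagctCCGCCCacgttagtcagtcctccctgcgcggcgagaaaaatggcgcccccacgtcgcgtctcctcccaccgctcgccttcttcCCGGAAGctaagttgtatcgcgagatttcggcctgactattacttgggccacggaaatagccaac
MED18: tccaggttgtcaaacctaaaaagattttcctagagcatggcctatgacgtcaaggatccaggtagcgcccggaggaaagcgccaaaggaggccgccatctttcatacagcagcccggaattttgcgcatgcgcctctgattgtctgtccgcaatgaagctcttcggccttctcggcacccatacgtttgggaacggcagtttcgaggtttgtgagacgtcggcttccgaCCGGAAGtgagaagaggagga
POLR2A: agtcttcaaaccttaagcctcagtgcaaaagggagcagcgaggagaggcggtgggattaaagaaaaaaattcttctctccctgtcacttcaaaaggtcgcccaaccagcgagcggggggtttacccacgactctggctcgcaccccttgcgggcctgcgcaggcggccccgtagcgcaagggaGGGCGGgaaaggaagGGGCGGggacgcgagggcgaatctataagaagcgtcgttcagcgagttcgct
The windows are chr19:16628205-16628454 (minus strand) for MED26, chr11:93741496-93741745 (minus) for TAF1D, chr1:28328790-28329039 (plus) for MED18 and chr17:7484116-7484365 (plus) for POLR2A. MED26 held 7 GC boxes and no ETS motif, TAF1D held 1 of each, MED18 held 1 ETS motif and no GC box, and POLR2A held 2 GC boxes. A GC box lay in 69.3% and the ETS motif in 18.0% of the promoters of the 7105 genes at the same minimum level that had an entry. None of the 4 windows held the AP-1 motif TGANTCA, a motif of the JUN family, which lay in 3.56% of those promoters. The longer form TGACGTCA was not among the motifs counted, and the MED18 window holds it. A promoter entry was found for 47 of the 62 members, fewer than 80%, so no share is given over the members. Matches of letters are a description and say nothing of binding.

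The libraries held 18997637 to 24014195 recovered reads. The 3 IAA columns were identical in every row, so they were counted as 1 library and every comparison with IAA is without a replicate. All 8 markers on the list for basal mammary epithelium (KRT5, KRT14, KRT17, TP63, EGFR, CDH1, LAMB3 and ITGB4) reached 5 CPM in at least 1 library. The same held for 4 of 7 luminal, 1 of 3 fibroblast, 0 of 4 leukocyte and 0 of 3 endothelial markers. The basal keratin KRT14 was low, at 3.63 to 10.6 CPM without 4sU and 3.91 to 5.38 CPM with DMSO and 4sU. Summed markers of the basal list were 1906 to 3531 CPM without 4sU, and LAMB3 alone was 850 to 2360 CPM. That list includes CDH1 and EGFR, which are not specific to basal cells. Summed luminal markers were 225 to 267 CPM, fibroblast markers 3.68 to 5.18, leukocyte markers 0.983 to 2.32 and endothelial markers 0.179 to 0.395 CPM in the same libraries. Unlabelled replicate 1 stood apart from the other 2 unlabelled libraries: 5 members lay at least 1.5-fold above both and 10 at least 1.5-fold below both, against 0 above and 0 or 1 below for the others. DMSO replicate 1 did so for 4 members above and 2 below. POLR2A, for instance, had 63.9, 110 and 113 CPM without 4sU, and POLR2L, a small subunit shared by all 3 nuclear polymerases, had 259, 135 and 135 CPM. The total mRNA differences of the highest and lowest members are therefore also given without replicate 1.

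Most messages of the machinery carried label after 1 h. The conversion rate was higher with DMSO and 4sU than without 4sU in 43 of 62 members and lower in 1 (limma on log2 rates, Benjamini-Hochberg adjusted p under 0.05 over 8537 genes). Over all genes tested 58.3% were higher and 0.0234% lower. The median member had a rate of 0.0577% without 4sU and 0.242% with DMSO and 4sU, close to the medians over all genes, 0.0601% and 0.218%. The median log2 difference was 1.21 in members and 1.18 over all genes. In 52 members (83.9%) all 3 labelled libraries lay above all 3 unlabelled ones, as in 68.3% of all genes tested. With 1 replicate number left out the count of higher members was 26 without replicate 1 and 28 without replicate 2 or replicate 3, and the corresponding counts over all genes were 2825, 3376 and 3316.

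**Figure D1:**
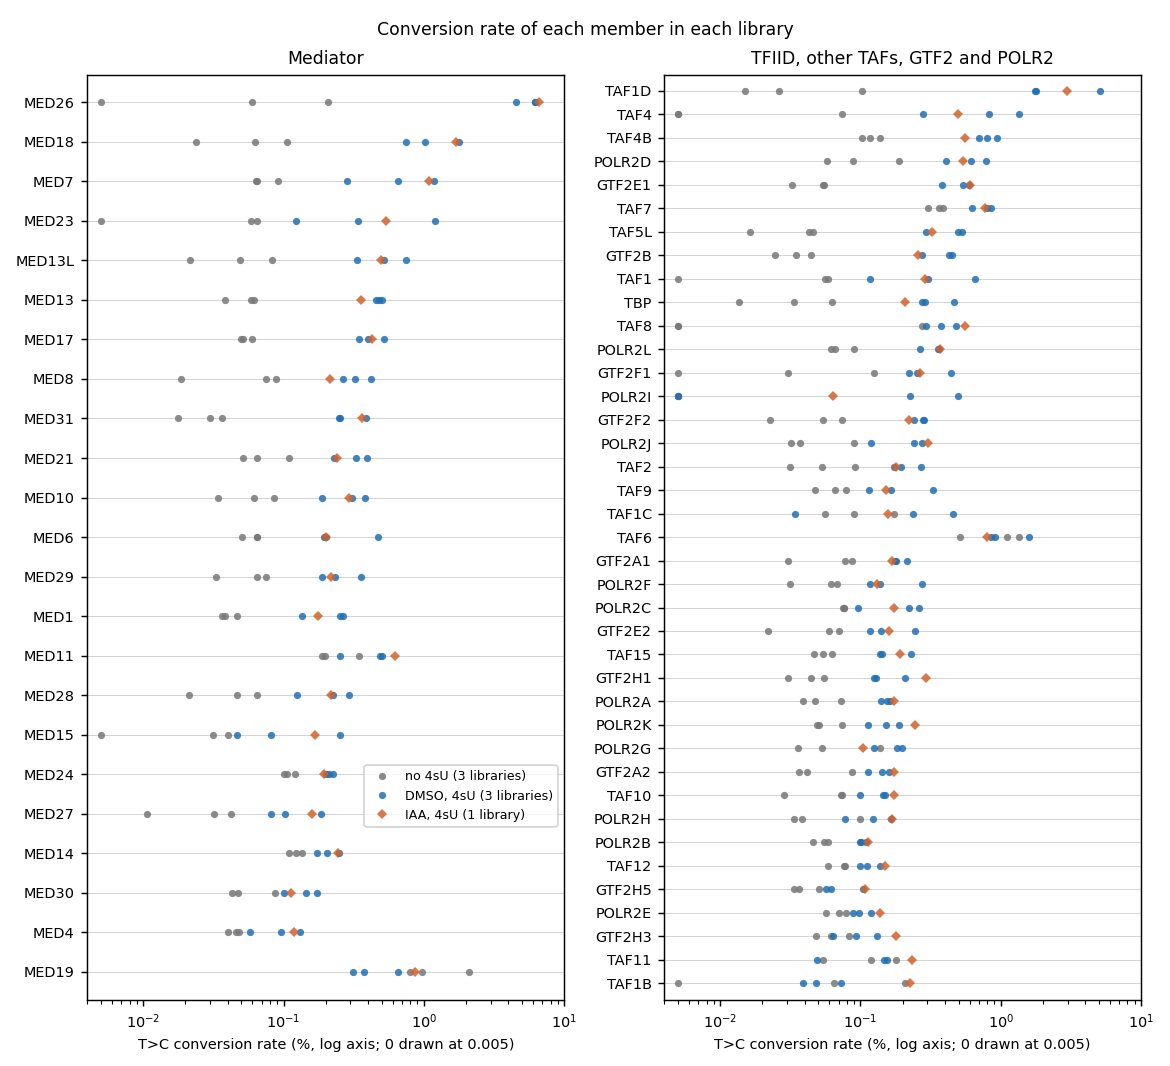
Each row is 1 member, and each point its T>C conversion rate in percent in 1 library on a log axis, with grey for no 4sU, blue for DMSO with 4sU and an orange diamond for the single IAA library with 4sU (a rate of 0 is drawn at 0.005%). MED26 and TAF1D stand to the right of the others, most members shift from near 0.05% to between 0.1% and 1%, and MED19 at the bottom of the left panel shifts the other way.

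Members covered the whole range of labelling. They were ranked among the 8537 genes by the mean rate with DMSO and 4sU less the mean rate without 4sU. By this difference 17 of 62 lay in the upper 25% and 11 in the lower 25%, with 6 in the top and 6 in the bottom 10%. The mean rate with DMSO and 4sU, background included, reached 1% in 4 members, MED26, TAF1D, MED18 and TAF6, where 5.49% of all genes did so. TAF6 had a mean of 0.987% without 4sU against 1.12% with DMSO and 4sU, and was not called. The order of members was shared between the libraries: Spearman's rho across the 62 members was 0.75 between DMSO replicates 1 and 2, 0.66 between 1 and 3 and 0.72 between 2 and 3, and 0.74 to 0.78 between the IAA library and each of them. Without MED26 and TAF1D the DMSO libraries gave 0.73, 0.63 and 0.69 in the same order. Across all 8537 genes they gave 0.56, 0.61 and 0.57, and the IAA library gave 0.58 to 0.62 with each. These values are across genes of the same libraries, which share base composition and interval length, and genes are not independent replicates.

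Of the 23 Mediator members 18 were higher and 1 was lower, where 58.3% of all genes tested were higher and 0.0234% lower. The same shares over all genes stand against each count of a module or family below. In the middle module, which connects head and tail, 6 of 8 were higher. MED26 (interval NM_004831), which hands the polymerase over to elongation factors, had the highest rate of all members. Its rate was 0.0599%, 0% and 0.209% without 4sU, 4.51%, 6.16% and 6.2% with DMSO and 4sU, and 6.67% with IAA. The labelled libraries were far above the unlabelled ones and close to each other, on 37, 78 and 76 reads in the DMSO libraries and 66 in the IAA library. The log2 difference was 5.64 (SE 0.57, limma adjusted p = 0.000719), and the mean rate lay at percentile 99.7 of the genes tested.

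MED1, which receives nuclear hormone receptors, had 0.0367%, 0.0468% and 0.0384% without 4sU and 0.136%, 0.266% and 0.253% with DMSO and 4sU. The groups did not overlap, and the log2 difference of 1.53 (SE 0.28) passed at an adjusted p of 0.00482 (limma). MED7, MED10, MED21 and MED31, the small structural subunits of the middle module, were higher as well, by 1.55 to 2.43 log2 units. MED4, their partner, was not called (log2 difference 0.58, limma adjusted p = 0.109).

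MED19 (interval NM_153450, gene at 57471182 to 57479693 on chromosome 11, minus strand, GRCh37), which helps tie the middle module to the head and to the polymerase, went the other way. It had a high rate without 4sU, 0.970%, 2.12% and 0.799%, against 0.658%, 0.375% and 0.313% with DMSO and 4sU and 0.858% with IAA. The DMSO libraries lay below all unlabelled ones, whereas the IAA library lay among the unlabelled values. The log2 difference was -1.37 (SE 0.44, limma adjusted p = 0.0326), and the call was lost without replicate 1, 2 or 3 in turn, at adjusted p of 0.064, 0.167 and 0.0761. Over all its alternatives the adjusted p ran from 0.0191 to 0.167. MED19 was measured on a high background, and whether that background moves with the total level (13.7, 10.9 and 12.7 CPM without 4sU, 21.4, 12.7 and 14.1 CPM with DMSO and 4sU) was not tested.

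In the head module, which binds the polymerase, 4 of 5 were higher. MED18 led with 1.01%, 1.77% and 0.741% with DMSO and 4sU and 1.69% with IAA, against 0.024%, 0.0625% and 0.106% without 4sU. Its log2 difference was 3.40 (SE 0.43, limma adjusted p = 0.00142). MED17, the central subunit of the head, had 0.346%, 0.523% and 0.402% against 0.0518%, 0.0502% and 0.0592%, a log2 difference of 2.17 (SE 0.27, limma adjusted p = 0.00124). MED6 and MED8 were higher by 1.53 and 1.85.

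MED11, the small partner of MED22 in the head, was not called. Its rates were 0.347%, 0.197% and 0.188% without 4sU and 0.254%, 0.501% and 0.489% with DMSO and 4sU, and the groups overlapped. Without replicate 1 it passed (log2 difference 1.17, limma adjusted p = 0.0438, against 0.158 with all libraries and a range of 0.0438 to 0.526 over the alternatives).

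All 4 subunits at the junction of head and tail were higher. MED29 had 0.188%, 0.231% and 0.357% against 0.0649%, 0.0748% and 0.0332% (log2 difference 1.5, SE 0.31, limma adjusted p = 0.00721), and missed the threshold without replicate 3 (adjusted p = 0.0532, the highest of its alternatives, which began at 0.00438). MED30, the lowest of them, had 0.172%, 0.146% and 0.101% against 0.0428%, 0.0473% and 0.0868%, on 81 to 190 reads in each library. Its log2 difference of 0.80 (SE 0.27, limma adjusted p = 0.0398) was lost without replicate 1 (adjusted p = 0.206) or replicate 2 (0.179) and with the replicate number as a block (0.0858), within a range of 0.0395 to 0.206 over the alternatives.

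In the tail, where activators dock, MED23 and MED24 were higher and MED15 was not called. MED23, a target of MAP kinase signalling through ELK1, spread widely, with 1.21%, 0.341% and 0.122% with DMSO and 4sU against 0%, 0.0587% and 0.0644% without 4sU. Replicate 1 was highest and replicate 3 lay near the unlabelled values. MED23 had 120 to 234 reads in each library. The log2 difference of 2.36 (SE 0.74, limma adjusted p = 0.0303) was lost without replicate 1 (adjusted p = 0.114) or 2 (0.0909) and with the block (0.055), in a range of 0.029 to 0.114.

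MED24, which sits beside MED23, had 0.224%, 0.211% and 0.202% against 0.121%, 0.100% and 0.106%. The spread within each group was small, and so was the log2 difference, 0.72 (SE 0.24, limma adjusted p = 0.0357). It was lost without replicate 1, 2 or 3 (adjusted p of 0.0956, 0.16 and 0.142) and with the block (0.0847), in a range of 0.0273 to 0.16. MED14, the scaffold that joins the modules, had 0.136%, 0.109% and 0.122% without 4sU and 0.174%, 0.247% and 0.204% with it, with no overlap, and was not called (log2 difference 0.58, SE 0.26, limma adjusted p = 0.0878).

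The kinase module gave 2 of 2 measured members, the paralogs MED13 and MED13L, which link the kinase to the core. MED13 had 0.506%, 0.483% and 0.457% with DMSO and 4sU against 0.0613%, 0.0383% and 0.0585%, one of the narrowest spreads here, and 0.359% with IAA. Its log2 difference was 2.38 (SE 0.26, limma adjusted p = 0.000812). MED13L had 0.744%, 0.522% and 0.336% against 0.0216%, 0.0488% and 0.0826% (log2 difference 2.52, SE 0.39, limma adjusted p = 0.00268). MED12, the activator of the kinase, was below the minimum at 4.45 CPM. Among its partners CDK19 and cyclin C (CCNC) were not called, with log2 differences of 0.14 and 0.17.

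Of the 12 TFIID members 8 were higher and none was lower. TAF4, the subunit around which the complex is built, had 1.35%, 0.819% and 0.277% with DMSO and 4sU, 0.493% with IAA, and 0.0737%, 0% and 0% without 4sU. The log2 difference was 3.44 (SE 0.62, limma adjusted p = 0.00476). Its paralog TAF4B had 0.796%, 0.696% and 0.939% against 0.117%, 0.102% and 0.138%, a log2 difference of 2.34.

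TBP, which binds the TATA element, had 0.272%, 0.287% and 0.462% against 0.0627%, 0.0136% and 0.0338% (log2 difference 2.18, SE 0.33, limma adjusted p = 0.00247). TAF1, the largest TAF and a reader of acetylated histones, had 0.658%, 0.116% and 0.302% against 0%, 0.0589% and 0.0555%. Labelled replicate 1 was far above the other labelled libraries. The log2 difference of 2.06 (SE 0.58, limma adjusted p = 0.0216) was lost without replicate 1 (adjusted p = 0.105) or 3 (0.083), in a range of 0.0135 to 0.105, and TAF1 reads can be shared with its retrogene copy TAF1L.

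TAF2, TAF7, TAF8 and TAF9 were higher by 1.00 to 2.19 log2 units, with TAF9 reported as uncertain because the gene overlaps AK6. TAF6, TAF10, TAF11 and TAF12 were not called. All 4 are histone-fold subunits, as are TAF4, TAF8 and TAF9, which were called. TAF11 had nearly equal means, with 0.180%, 0.054% and 0.119% without 4sU and 0.148%, 0.0487% and 0.154% with DMSO and 4sU (log2 difference -0.01, SE 0.42, limma adjusted p = 0.991). TAF10 lay just past the threshold at an adjusted p of 0.0514 (limma), with 0.145%, 0.0991% and 0.150% against 0.0284%, 0.0735% and 0.0729% and no overlap.

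The names also take in TAFs that are not TFIID subunits. TAF1D is part of SL1, the factor that brings RNA polymerase I to ribosomal DNA, and its gene also hosts small nucleolar RNAs. It had the second highest rate of all members, 5.05%, 1.78% and 1.76% with DMSO and 4sU and 2.98% with IAA, against 0.0151%, 0.0265% and 0.103% without 4sU. Replicate 1 was highest, and every labelled library was above every unlabelled one (log2 difference 4.81, SE 0.53, limma adjusted p = 0.000879). The other SL1 members TAF1B and TAF1C were not called, at log2 differences of -0.16 and 0.63. TAF5L, a SAGA subunit, and TAF15, an RNA-binding protein, were higher by 2.50 and 1.05.

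Of the 10 general factor genes 8 were higher. GTF2E1, the large subunit of TFIIE, led with 0.598%, 0.381% and 0.540% with DMSO and 4sU against 0.0542%, 0.0323% and 0.0548% (log2 difference 2.51, SE 0.29, limma adjusted p = 0.000998). GTF2B, that is TFIIB, which places the polymerase at the start site, had 0.425%, 0.446% and 0.274% against 0.0345%, 0.0447% and 0.0248% (log2 difference 2.33, SE 0.28, limma adjusted p = 0.00112). In all, 3 of 3 TFIIA and TFIIB genes and 4 of 4 TFIIE and TFIIF genes passed.

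TFIIH, which carries the promoter-opening helicase and the CDK7 kinase, gave 1 of 3: GTF2H1 was higher by 1.11 log2 units, and GTF2H3 and GTF2H5 were not called. GTF2H3 had the lowest difference among general factors, 0.132%, 0.0632% and 0.0936% against 0.0481%, 0.0822% and 0.0619%, with overlap (log2 difference 0.34, SE 0.27, limma adjusted p = 0.293). Of its partners CDK7 and the helicase ERCC3 were higher, by 1.67 and 1.35, and MNAT1 (0.58) and cyclin H (CCNH, -0.03) were not called.

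All 12 POLR2 genes reached the minimum, and 6 were higher: POLR2A, POLR2D, POLR2F, POLR2J, POLR2K and POLR2L. POLR2D, which forms the stalk of the polymerase, had 0.609%, 0.782% and 0.409% with DMSO and 4sU against 0.058%, 0.189% and 0.0881% (log2 difference 2.05, SE 0.40, limma adjusted p = 0.00622), and missed the threshold without replicate 1 (adjusted p = 0.0584, the highest of a range from 0.00326). POLR2A had 0.156%, 0.162% and 0.140% with DMSO and 4sU, 0.174% with IAA, and 0.0732%, 0.0392% and 0.0476% without 4sU. The labelled rates lay close together and the unlabelled ones spread more, on 1293 to 2502 reads in each library. The log2 difference of 0.98 (SE 0.23, limma adjusted p = 0.0112) was lost without replicate 2 (adjusted p = 0.0816) or 3 (0.0675), in a range of 0.0073 to 0.0816. POLR2A lay at percentile 28.9 of the mean labelled rate, below most genes.

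POLR2F had 0.117%, 0.138% and 0.275% against 0.0681%, 0.0618% and 0.0315% (log2 difference 1.08, SE 0.33, limma adjusted p = 0.0282), lost without replicate 1, 2 or 3 (adjusted p of 0.0605, 0.0783 and 0.147) and with the block (0.0619), in a range of 0.0137 to 0.147. POLR2J had 0.274%, 0.119% and 0.243% against 0.0904%, 0.0322% and 0.0371% (log2 difference 1.33, SE 0.36, limma adjusted p = 0.0182), lost without replicate 1 (adjusted p = 0.0501) or 3 (0.121), in a range of 0.0117 to 0.121. Near-identical POLR2J copies exist in the genome, so its reads are uncertain.

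The second large subunit POLR2B, POLR2C, POLR2E, POLR2G, POLR2H and POLR2I were not called. POLR2E, a subunit shared with the other polymerases, had 0.119%, 0.0982% and 0.0883% against 0.0568%, 0.0790% and 0.0701%, all above but by little (log2 difference 0.36, SE 0.22, limma adjusted p = 0.191). POLR2I had a rate of 0 in all unlabelled libraries and 0.497%, 0.226% and 0% with DMSO and 4sU. It was called only without replicate 3 (adjusted p = 0.0139, in a range of 0.0139 to 0.335, against 0.0757 with all libraries).

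Some members carried a high rate with no 4sU at all. The mean unlabelled rate reached 0.2% in 4 of 62, MED19, TAF6, TAF7 and MED11, where 2.05% of all genes did so. TAF6 and TAF7 were named after their values had been seen. TAF6 had 0.511%, 1.34% and 1.11% without 4sU and 0.914%, 0.855% and 1.60% with DMSO and 4sU, with means of 0.987% and 1.12% (log2 difference 0.22, limma adjusted p = 0.642). TAF7, a TFIID subunit that restrains TAF1, had 0.390%, 0.303% and 0.366% against 0.793%, 0.851% and 0.627%, and was called at a log2 difference of 1.00 (limma adjusted p = 0.0143).

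Other genes of the same steps were taken from a list. Of 28 listed regulators of TBP, TFIIH, the Mediator kinase, pausing and elongation, 24 reached 5 CPM. Of these 16 were higher and none lower, where 58.3% of all genes tested were higher and 0.0234% lower. The highest of the 24 were the elongation factor ELL (log2 difference 3.54) and the P-TEFb cyclins CCNT2 (3.15) and CCNT1 (2.99). All 4 TBP regulators were higher, from DR1 at 0.70 to TBPL1 at 2.82, as were 10 of 14 pausing and elongation genes, 2 of 4 TFIIH partners and 0 of 2 kinase partners.

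In total mRNA the labelled and unlabelled libraries of most members overlapped. The log2 difference (CPM + 1, TMM library sizes) between DMSO with 4sU and no 4sU had a median of 0.08 in members and 0.04 over all genes. The 3 labelled libraries lay all above the unlabelled ones in 8 members and all below in 8, and overlapped in 46. Over all genes 7.85% lay all above and 10.1% all below. With 1 replicate number left out, groups of 2 separate more often in all genes as well: 21 members (33.9%, all genes 27.4%) lay above and 18 (29.0%, all genes 20.5%) below without replicate 1. Without replicate 2 these were 16 (25.8%, all genes 20.4%) and 13 (21.0%, all genes 18.2%), and without replicate 3 they were 9 (14.5%, all genes 14.4%) and 11 (17.7%, all genes 14.3%). Since the replicate numbers paired the libraries in total mRNA, the direction within pairs was also counted, a choice made after seeing the data: the labelled library was above in all 3 pairs for 16 members (25.8%, all genes 23.6%) and below in all 3 for 12 (19.4%, all genes 17.8%). Fewer cells of a type and less RNA per cell cannot be told apart in such bulk libraries.

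MED26 was lowest. It had 9.99, 9.92 and 8.69 CPM without 4sU, 1.74, 3.25 and 3.78 CPM with DMSO and 4sU and 3.29 CPM with IAA. The labelled libraries were all below, by -1.50 on the log2 scale, at percentile 0.638 of all genes. TAF1D had 23.8, 45.1 and 47.4 CPM without 4sU, 14.7, 21.0 and 21.0 CPM with DMSO and 4sU and 18.8 CPM with IAA. Its difference was -1.0, or -1.19 without replicate 1, and MED26's was -1.27 without replicate 1.

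TAF4 had 5.68, 6.66 and 5.84 CPM without 4sU and 3.24, 4.62 and 4.33 CPM with DMSO and 4sU, a log2 difference of -0.53, or -0.48 without replicate 1. MED17 had 28.5, 33.3 and 29.6 CPM against 20.8, 23.4 and 22.7 CPM, a difference of -0.48, or -0.52 without replicate 1. GTF2E1, at -0.46 (-0.57 without replicate 1), overlapped, with 15.3, 12 and 12.7 CPM against 12.6, 7.20 and 10.1 CPM, and was below in all 3 pairs. The other members that lay all below were TAF5L, MED13, MED13L and GTF2B, between -0.41 and -0.28. For TAF5L this held for the interval used, NM_014409, with mean CPM of 28.5 without 4sU and 22.0 with DMSO and 4sU. Its other interval, NM_001025247, had means of 23.4 and 22.1 CPM. The rates there were 0.432%, 0.291% and 0.239% with DMSO and 4sU against 0.0463%, 0.106% and 0.0363%.

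TAF10 (interval NM_006284, gene at 6627524 to 6633770 on chromosome 11, minus strand, GRCh37) was highest. It had 25.1, 46.0 and 35.9 CPM without 4sU, 94.6, 52.0 and 63.7 CPM with DMSO and 4sU and 94.2 CPM with IAA, a log2 difference of 0.91 that was 0.41 without replicate 1. MED24 had 184, 393 and 262 CPM without 4sU and 573, 422 and 447 CPM with DMSO and 4sU, a difference of 0.79 that was 0.35 without replicate 1, and 649 CPM with IAA. In both genes replicate 1 was the lowest of the unlabelled and the highest of the labelled libraries.

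POLR2E had 77.9, 111 and 85.5 CPM against 195, 121 and 128 CPM, a log2 difference of 0.63 with no overlap, or 0.27 without replicate 1. POLR2J had 18.8, 19.8 and 20.6 CPM against 43.9, 20.6 and 31.1 CPM (0.56, or 0.23 without replicate 1), and POLR2F had 47.5, 34.6 and 35.1 CPM against 75, 44.5 and 48.9 CPM (0.44, or 0.33 without replicate 1). The groups of both overlapped, POLR2F was above in all 3 pairs, and POLR2J was above in pairs 1 and 3 and differed by -0.02 in pair 2. GTF2A2, MED30, TAF12, POLR2G and POLR2H lay all above by 0.22 to 0.30.

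**Figure D2:**
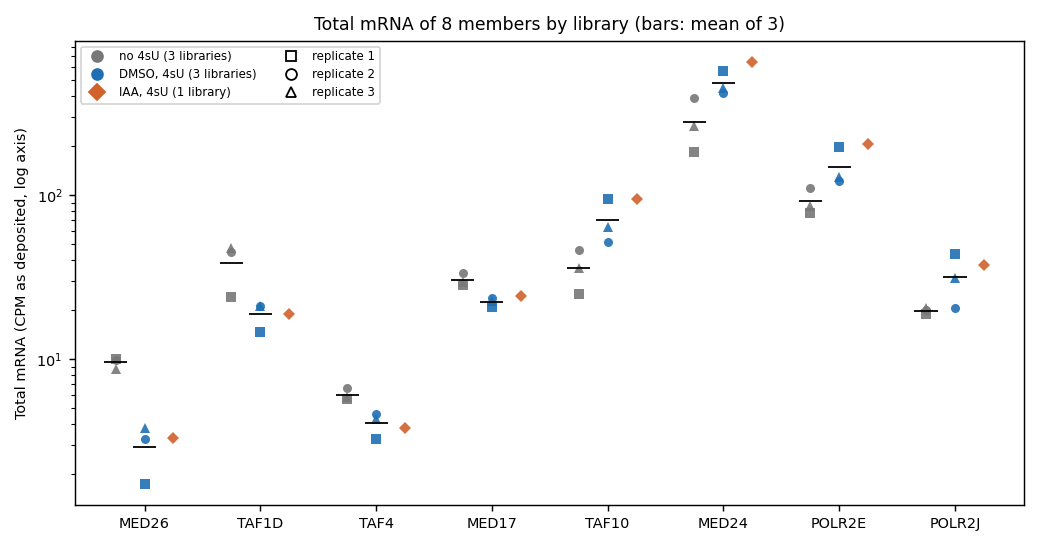
Total mRNA in CPM as deposited, on a log axis, of the 4 lowest and 4 highest members by log2 difference, with grey for no 4sU, blue for DMSO with 4sU, an orange diamond for the IAA library, squares, circles and triangles for replicates 1, 2 and 3, and bars for means of 3. The labelled points of MED26 sit between 1.74 and 3.78 CPM, below all its unlabelled points at 8.69 to 9.99 CPM, and those of TAF10 and MED24 sit above.

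Members with a larger difference in rate tended to have lower total mRNA in the labelled cells. Spearman's rho between the difference in rate and the log2 difference in total mRNA was -0.58 across the 62 members and -0.53 without MED26 and TAF1D, and -0.45 over all 8537 genes, so it is not particular to the machinery. Both measures come from the same intervals and libraries. The members that lay all below (MED26, TAF1D, TAF4, MED17, TAF5L, MED13, MED13L and GTF2B) all passed the test of the rate, at log2 differences of 2.17 or more. For TAF5L both values are those of the interval used. Of the 8 that lay all above, 3 passed (GTF2A2, MED30 and MED24) and 5 were not called (TAF10, POLR2E, POLR2G, POLR2H and TAF12). The share that passed as higher over all genes tested was 58.3%. It was not counted apart for genes all below or all above, so these counts do not set the members apart from other genes.

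**Figure D3:**
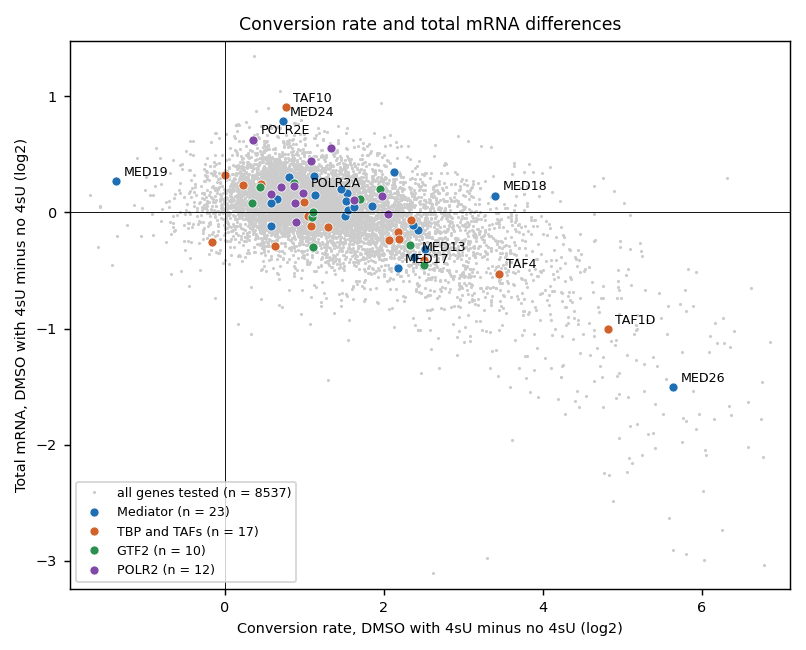
Log2 difference in conversion rate (horizontal) against log2 difference in total mRNA (vertical), both DMSO with 4sU minus no 4sU, for all 8537 genes (grey) and the members, coloured by family. MED26 and TAF1D lie at the lower right (5.64 and -1.50, 4.81 and -1.0), TAF10, MED24 and POLR2E at the top, and MED19 alone among members at the far left.

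With JUN-AID degraded, most members lay within the range of the DMSO libraries. The median member differed between the IAA library and the DMSO mean by -0.08 log2 units in rate (each library centred on its median over all genes) and by 0.04 in total mRNA, and the medians over all genes were both -0.01. In rate the IAA library lay within the range of the 3 DMSO libraries for 38 members, above it for 10 and below it for 14, or 16.1% above and 22.6% below, against 23.3% and 26.1% of all genes. In total mRNA it lay within for 42, above for 11 (17.7%) and below for 9 (14.5%), against 19.5% and 21.4% of all genes. With 1 library there is no test.

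A member was counted as different where the IAA library lay outside the DMSO range and at least 1 log2 unit from the DMSO mean. In rate this held for 1 member, which was higher, where 6.48% of all genes were higher and 6.71% lower. In total mRNA it held for 0 members, where 0.0937% of all genes were higher and 0.0234% lower. The member was TAF1B, with 0.0478%, 0.0730% and 0.0386% with DMSO and 4sU and 0.224% with IAA. Its unlabelled values, 0.0646%, 0% and 0.209%, reached almost as high, on 102 to 193 reads in each library. The difference of 1.29 log2 units became 0.66 with a pseudocount of 0.002 in place of 0.0005.

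For the 3 members with the highest rates after background the IAA library gave 0.13 (MED26), 0.10 (TAF1D) and 0.46 (MED18) log2 units in rate, each within the DMSO range. POLR2A differed by 0.01 in rate and -0.03 in total mRNA, and TBP by -0.70 in rate, below the DMSO range, and 0.00 in total mRNA. In total mRNA the largest differences among the members were 0.52 for MED23, -0.43 for GTF2F2 and 0.41 for POLR2E. MED23 lay above and GTF2F2 below the DMSO range. POLR2E lay within it, since DMSO replicate 1 alone was 0.43 above the DMSO mean. Of the 24 listed regulators at 5 CPM or more, 1 passed 1 log2 unit in rate outside the DMSO range, the cyclin of TFIIH, CCNH. Over all genes 6.48% did so upward and 6.71% downward. CCNH had 0.025%, 0.015% and 0.114% with DMSO and 4sU and 0.397% with IAA. Its unlabelled rates were 0.0503%, 0.0669% and 0.0225%, on 180 to 321 reads in each library. Just short of 1 log2 unit, and outside the DMSO range, were CDK19 (0.996), BTAF1 (-0.9999) and ERCC3 (-0.989).

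**Figure D4:**
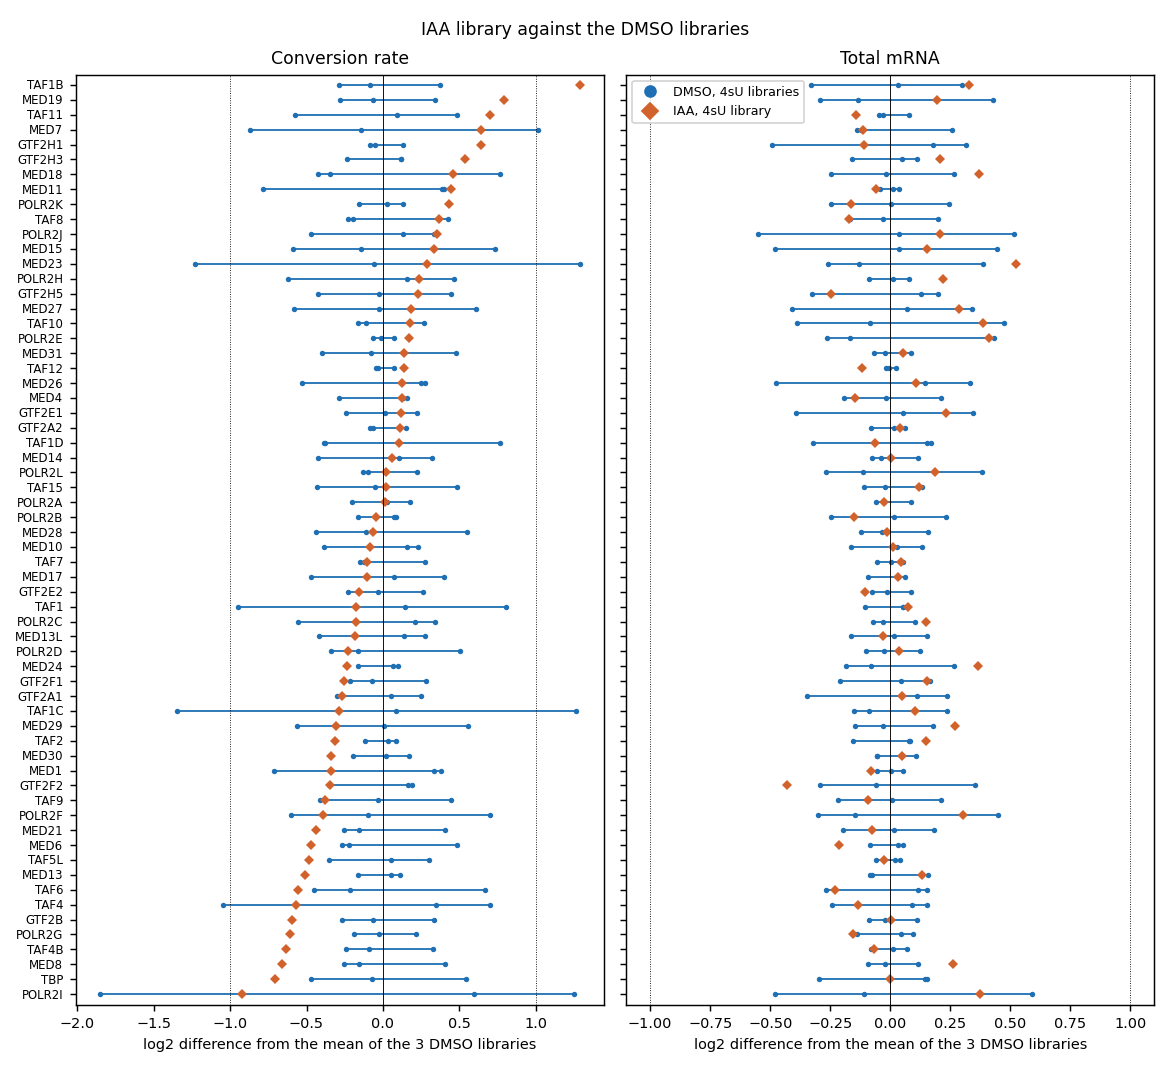
For each member (rows) the log2 difference of the IAA library (orange diamond) and of each DMSO library (blue points joined by a line) from the mean of the 3 DMSO libraries, in conversion rate (left) and total mRNA (right), with dotted lines at 1 log2 unit either way. TAF1B alone has its diamond outside the blue range and past a dotted line, in rate only, and the total mRNA diamonds stay between -0.43 and 0.52.

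The minimum level left out 21 genes of the same names. Just inside it were MED30 (5.57 CPM), TAF4 (6.06) and POLR2I (7.31), and just outside were TAF1A (4.69), MED20 (4.67) and GTF2H4 (4.67). TAF1A, the fourth SL1 factor, had 0.100%, 0.171% and 0.0519% without 4sU and 2.08%, 0.901% and 0.306% with DMSO and 4sU, on 53 to 57 reads in the latter. The Mediator genes below the minimum were MED9, MED12, MED12L, MED16, MED20, MED22 and MED25. The others were TAF1A, TAF1L, TAF3, TAF5, TAF6L, TAF7L, TAF9B, TAF13, GTF2A1L, GTF2H4 and the copies GTF2H2, GTF2H2B, GTF2H2C and GTF2H2C_2, whose reads cannot be assigned with certainty because they are near-identical.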

How the data were processed

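SLAM-Seq libraries were made from RNA of 9 samples in 3 groups of 3, taken from the sample titles. Single-end QuantSeq 3′ reads were processed by the authors with the nf-core slamseq pipeline, and the submitters' processing notes name hg19. Aligner, versions and use of strand are not given in the sources used here. The deposited table gives per interval and library a conversion rate, a fraction of T positions read as C without background subtraction (printed here as percent), and a value the authors label CPM, a signal whose column totals differ between libraries. These were whole multiples of 1 read in 100% of values (tolerance 0.001), which gave library totals of 18997637 to 24014195 reads. The T coverage behind a rate is not in the table, so a rate has no binomial interval. Per-sample columns not used numbered 0.

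RefSeq identifiers were matched to symbols in 97.7% of 56868 rows, and the interval with most CPM stood for its gene (15 members had several). The 3 IAA columns were identical (0 rows differed) and were used as 1 library, so 7 libraries are distinct. Rates of 8537 genes were compared with limma 3.58.1 (R 4.3.3, trended and robust) on log2(rate + 0.0005), with Benjamini-Hochberg adjustment. Fold changes on this scale understate differences of low rates. Total mRNA used log2(CPM + 1) with TMM factors, described only for the members. Counts of calls over the whole table came from limma and, run on recovered reads, from DESeq2 1.42.0 and edgeR 4.0.16. The design assumed CPM, and log-scale tests were used for the signal as they would have been for CPM. The fits were tested on simulated data.

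For total mRNA the replicate numbers paired the libraries: deviations of same-numbered unlabelled and DMSO libraries correlated at 0.40, 0.34 and 0.46 across 8393 genes, and the labels give no reason for the pairing.

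Members and lists were chosen with earlier results of these data known. Genes named with full values were the highest and lowest of each module in rate, POLR2A, TBP, TAF1, MED1, MED14 and GTF2B, the 5 highest and 5 lowest in total mRNA, those past 1 log2 unit with IAA and those nearest the minimum of 5 CPM. Further members are named so that each is accounted for, after their values were seen. Promoters are RefSeq's, GRCh38.p14.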

Additional observations from a re-analysis of the deposited data

How the results depend on the processing

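The count of members with a higher rate under DMSO and 4sU, 43, was 31 with no filter on low values and 41 to 43 under the other pseudocounts, filters, interval choices and variance settings. Leaving out 1 replicate gave 26 to 28 members and 2825 to 3376 of all genes (4979 with all). For rates the replicate numbers did not pair the libraries: same-numbered deviations correlated at 0.000039, -0.016 and -0.0087, and 0 of 6 libraries correlated best with their own number. With the replicate block the counts were 37 members and 4513 genes. No paired analysis was possible because, for IAA against DMSO, which replicate the repeated IAA values belong to is not known. Of the named rate differences under single alternatives, 299 kept direction and call, 34 lost the call, 4 gained it and 4 changed sign. The last were TAF11 (-0.15 to 0.10 with 1 replicate left out, 0.03 without replicate 2) and TAF1B (0.17 with a pseudocount of 0.0001, -0.89 to 0.54 with 1 replicate left out, highest without replicate 3), neither called.

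For IAA, the median rate difference of members was 0.058 without centring. The count of members past 1 log2 unit was 0 with a pseudocount of 0.002 or at least 200 reads, and 1 to 3 with 1 DMSO library left out (3 without replicate 3). The median difference in total mRNA was 0.12 with CPM as deposited and 0.0036 to 0.051 with 1 DMSO library left out. For total mRNA of DMSO with 4sU against no 4sU, the member median was 0.13 with CPM as deposited and 0.045 to 0.089 with 1 replicate left out, and 9 to 21 members (14.5 to 33.9%, all genes 14.4 to 27.4%) lay all above and 11 to 18 (17.7 to 29.0%, all genes 14.3 to 20.5%) all below. In pairs of the same replicate number, counted after seeing the data, 16 were above and 12 below in all 3 pairs. Without replicate 1 the difference of TAF10 was 0.41. Over all genes of the table, limma and edgeR each called 98 lower and 0 higher (236 and 252 higher at an unadjusted p under 0.05). DESeq2 called 244 lower and 2 higher. limma called 172 lower with no filter, 114 with the replicate block and 18 to 240 with 1 replicate left out (240 without replicate 1). The cause of these shifts was not tested. Low reads limit the rates of, among others, MED26 (37 reads in DMSO replicate 1), TAF4, TAF1B, POLR2I, MED23 and MED30.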
